A study of Arabidopsis thaliana with 10 samples.

Results

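UPOX, NDB2, HSP23.5 and At12Cys-2 are nuclear genes for mitochondrial proteins, and they are followed here array by array in Arabidopsis thaliana seedlings that carry the transgene TaSIN. They were picked by locus from earlier results of the same arrays: UPOX (AT2G21640) and HSP23.5 (AT5G51440) for their large differences between the TaSIN lines and the controls, At12Cys-2 (AT5G09570) and NDB2 (AT4G05020) as further genes of the mitochondrial stress response. These are 4 genes of 13286 loci with a named probe set, and each is read by 1 probe set. The values against the controls therefore describe these genes and are given without a test, while the direct comparisons of TaSIN lines with each other, and of the control lines with each other, were tested.

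Seedlings were harvested at 12 days from 5 lines grown without stress, and each line is represented by 2 arrays, which the series design text calls biological replicates. FL3 is a line with constitutive expression of full-length TaSIN. ΔC26 and ΔC27 are lines with constitutive expression of a truncated TaSIN that lacks its transmembrane motif. VC is a transgenic line with an empty vector, Col-0 is the wild type, and these 2 lines serve as the controls. Full-length TaSIN is represented by a single line, no probe set carried the name TaSIN in the annotation used, and the promoter that drives the transgene is not given in the sources used here, which leaves transgene expression unmeasured on these arrays.

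When plant mitochondria are disturbed, a signal to the nucleus called retrograde signalling switches on a set of nuclear genes. NAC transcription factors held at a membrane, such as ANAC017, are known to be released in this response and to act in the nucleus. Its best known products form an alternative respiratory chain, in which NADH dehydrogenases and alternative oxidases pass electrons without pumping protons, together with chaperones and small mitochondrial proteins that serve as markers of the response. The present genes cover such roles: UPOX is a mitochondrial protein named for its induction by oxidative stress, NDB2 is a dehydrogenase on the outer face of the inner membrane that oxidises cytosolic NADH, HSP23.5 is a small heat shock protein that binds unfolding proteins in mitochondria, and At12Cys-2 is a small protein with paired cysteines.

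The measurements are the authors' deposited intensities, with 1 linear value per probe set and array. Array medians ran from 41.7 to 44.2. Over all probe sets the arrays of a line correlated at 0.971 to 0.993, and 3 arrays, ΔC26 replicate 1 and both arrays of ΔC27, were closer to an array of another line than to their own replicate. Photosynthesis genes, the markers of shoot tissue, were bright: the 4 measured of 9 listed summed to intensities of 12407 to 19883 in TaSIN arrays, against 14617 to 17487 in control arrays. The 2 measured root markers of 10, the root hair expansins EXPA7 and EXPA18, summed to 21.5 to 35.9 in FL3, 41.7 to 88.4 in ΔC26 and 40.0 to 65.9 in ΔC27, against 25.5 to 38.7 in control arrays. No marker was at 0, but the root markers were dim, with a lowest reading of 7.5. In whole seedlings fewer cells of a type and less RNA per cell cannot be told apart.

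UPOX was read at 2075 and 2043 in FL3, at 1877 and 1814 in ΔC26 and at 2594 and 2262 in ΔC27. The control arrays read 29.2 and 48.7 in VC and 35.7 and 57.3 in Col-0. All 6 TaSIN arrays thus lay far above all 4 control arrays, with no overlap, and the TaSIN lines lay close to each other. As differences of log2(intensity + 16), the scale of all differences given here, UPOX was higher than in the controls by 5.17 ± 0.18 (SE) in FL3, by 5.01 ± 0.18 in ΔC26 and by 5.40 ± 0.18 in ΔC27. In each of these contrasts it ranked 1 among 22746 probe sets.

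The 3 TaSIN lines were then set against each other for UPOX. The line means were 2428 ± 235 in ΔC27, 2059 ± 22.4 in FL3 and 1846 ± 44.1 in ΔC26 (SD, n = 2 each). Their arrays did not overlap, for which no share over all probe sets was computed. The direct tests did not pass: FL3 minus the mean of the ΔC lines gave a log2 difference of -0.04 (95% interval -0.43 to 0.36, limma, adjusted p = 0.96) and ΔC26 minus ΔC27 gave -0.39 (-0.85 to 0.07, limma, adjusted p = 0.36). FL3 lay between the truncated lines, and the interval leaves room for a difference between FL3 and these lines of up to 0.43 on the log2 scale. It is built from the spread of arrays within lines. With a single full-length line, it does not bound a difference between full-length and truncated TaSIN as such. FL3 minus the ΔC lines uses the same TaSIN arrays as the contrasts from which the genes were chosen.

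HSP23.5 was read at 332 and 246 in FL3, at 458 and 240 in ΔC26 and at 185 and 279 in ΔC27. The control arrays read 15.5 and 24.3 in VC and 20.4 and 23.9 in Col-0. The lowest TaSIN array, in ΔC27, was still far above the highest control array, but the TaSIN lines overlapped each other, and ΔC26 had the widest gap between its own arrays. The log2 difference from the controls was 3.03 ± 0.26 in FL3, 3.24 ± 0.26 in ΔC26 and 2.73 ± 0.26 in ΔC27 (SE).

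For HSP23.5 too the direct tests did not pass. FL3 minus the ΔC lines was 0.05 (95% interval -0.53 to 0.63, limma, adjusted p = 0.97), and ΔC26 minus ΔC27 was 0.52 (-0.15 to 1.19, limma, adjusted p = 0.41). That of the truncated lines ran from 0.072 without ΔC26 replicate 1 to 0.96 without ΔC26 replicate 2. The order of the line means was ΔC26, FL3, ΔC27, Col-0 and VC, and the only step in it without overlapping arrays was that between ΔC27 and Col-0.

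NDB2 was read at 225 and 125 in FL3, at 181 and 224 in ΔC26 and at 312 and 237 in ΔC27. The control arrays read 103 and 119 in VC and 84.4 and 113 in Col-0. Here the separation was small: FL3 replicate 2 lay just above the highest control array, whereas all ΔC arrays lay well above. The log2 difference from the controls was 0.62 ± 0.22 in FL3, 0.86 ± 0.22 in ΔC26 and 1.26 ± 0.22 in ΔC27 (SE). In FL3 the value rested on replicate 1: it was 0.23 without that array and 1.01 without replicate 2.

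At12Cys-2 was read at 140 and 46.3 in FL3, at 133 and 214 in ΔC26 and at 318 and 322 in ΔC27. The control arrays read 25.3 and 44.1 in VC and 69.3 and 74.6 in Col-0. The ΔC arrays all lay above the controls, but FL3 did not separate from them, since its replicate 2 fell between the arrays of the control lines and below both Col-0 arrays. The log2 difference from the controls was 0.58 ± 0.33 in FL3, 1.48 ± 0.33 in ΔC26 and 2.34 ± 0.33 in ΔC27 (SE). Without FL3 replicate 1 the FL3 value was -0.088, and without replicate 2 it was 1.24.

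**Figure D1:**
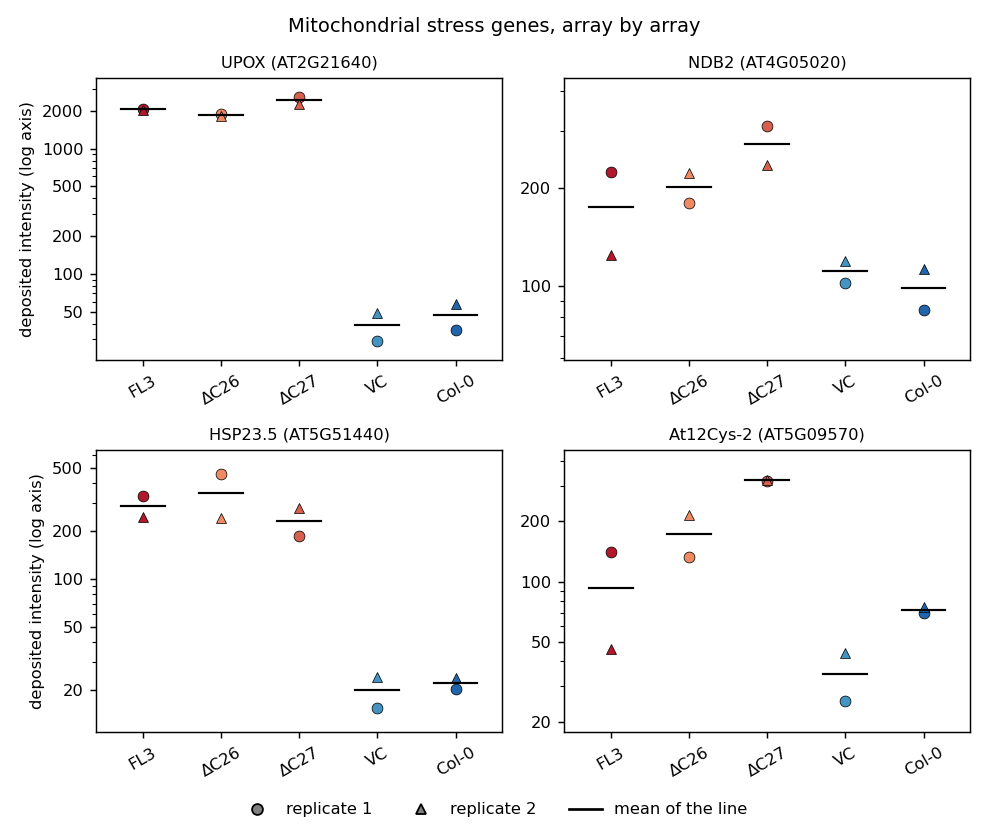
Deposited intensity (log axis) of UPOX, NDB2, HSP23.5 and At12Cys-2 in each of the 10 arrays, by line, with the mean of each line as a bar. UPOX and HSP23.5 are far above the controls in all 6 TaSIN arrays, while NDB2 and At12Cys-2 are highest in ΔC27 and their FL3 arrays are spread apart, at 225 and 125 for NDB2 and 140 and 46.3 for At12Cys-2.

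For 3 of the 4, UPOX, HSP23.5 and NDB2, every TaSIN array was above every control array, as was the case for 4.81% of all probe sets. For all 4 every ΔC array was above every control array, against 7.76% of all probe sets. These counts describe genes chosen from the same contrasts, and nothing is read from them. The difference from the controls was 5.17 in FL3 and 5.21 in the ΔC lines for UPOX, and 3.03 and 2.98 for HSP23.5. For NDB2 it was 0.62 in FL3 and 1.06 in the ΔC lines, and for At12Cys-2 0.58 and 1.91.

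Whether FL3 differed from the ΔC lines in NDB2 and At12Cys-2 was tested directly. FL3 minus the ΔC lines was -1.34 ± 0.33 (SE, 95% interval -2.08 to -0.60) for At12Cys-2 and -0.44 ± 0.22 (-0.94 to 0.06) for NDB2. Neither difference passed (limma, p adjusted over all probe sets by Benjamini-Hochberg = 0.19 and 0.52), although the unadjusted p of At12Cys-2 was 0.0025 in this model. The arrays of FL3 and of the ΔC lines overlapped in both genes, with FL3 replicate 1 above the lowest ΔC array and FL3 replicate 2 below all of them. In this contrast 0.207% of all probe sets passed. Without FL3 replicate 1 the difference was -2.0 for At12Cys-2 and -0.83 for NDB2, and without FL3 replicate 2 it was -0.67 and -0.053. The summed root markers, both dim genes, were above all control arrays in the 4 ΔC arrays and not in FL3. The margin was small: the lowest ΔC sum was 40.0, in ΔC27, against a highest control sum of 38.7. Of these 2 genes 0 passed in FL3 minus the ΔC lines, with 1 at an unadjusted p under 0.05 (limma). The part of the root markers in the result was not tested.

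The same genes were compared between the truncated lines. ΔC26 minus ΔC27 was -0.86 ± 0.38 (SE, 95% interval -1.71 to -0.01) for At12Cys-2 and -0.41 ± 0.26 (-0.98 to 0.17) for NDB2. Neither difference passed (limma, adjusted p = 0.28 and 0.46), in a contrast in which 2.95% of all probe sets did. All ΔC27 arrays were above all ΔC26 arrays in both genes. The share of all probe sets with such a separation was not computed, and nothing is read from it. The summed shoot markers ran the other way, at 17722 and above in ΔC26 and 13373 and below in ΔC27, although 0 of the 4 genes passed in ΔC26 minus ΔC27, with 4 at an unadjusted p under 0.05 (limma). Among the shoot markers LHCB4.1, a light-harvesting protein of photosystem II, fell in ΔC27 to 3802 against 5381 in the controls (log2 difference -0.50, limma, adjusted p = 0.012). LHCB4.1 was named because it was called in this contrast, and the other 3 shoot markers did not pass in it. Over all probe sets 8.49% were lower in ΔC27. The LHCB4.1 call ended without either ΔC27 array, with an adjusted p of up to 0.063, and the part of tissue makeup in the levels of NDB2 and At12Cys-2 was not tested.

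The empty vector was examined in VC minus Col-0. At12Cys-2 was the member with the largest gap, at 34.7 ± 13.3 in VC and 72.0 ± 3.71 in Col-0 (SD, n = 2 each), a log2 difference of -0.82 (95% interval -1.67 to 0.03). This did not pass (limma, adjusted p = 0.73). The arrays of the control lines did not overlap, for which no share over all probe sets was computed. The differences of UPOX, HSP23.5 and NDB2 were -0.19, -0.10 and 0.16, with overlapping arrays, and 0.0264% of all probe sets passed in this contrast. Of the 12 direct tests of the 4 genes in 3 contrasts 0 passed by limma, and 2 had an unadjusted p under 0.05. These were the tests of At12Cys-2 between FL3 and the ΔC lines and between ΔC26 and ΔC27. Of all 22746 probe sets, 2446 had an unadjusted p under 0.05 in FL3 minus the ΔC lines (limma). The number was 4034 in ΔC26 minus ΔC27 and 1594 in VC minus Col-0. Nothing is read from the count of 2.

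**Figure D2:**
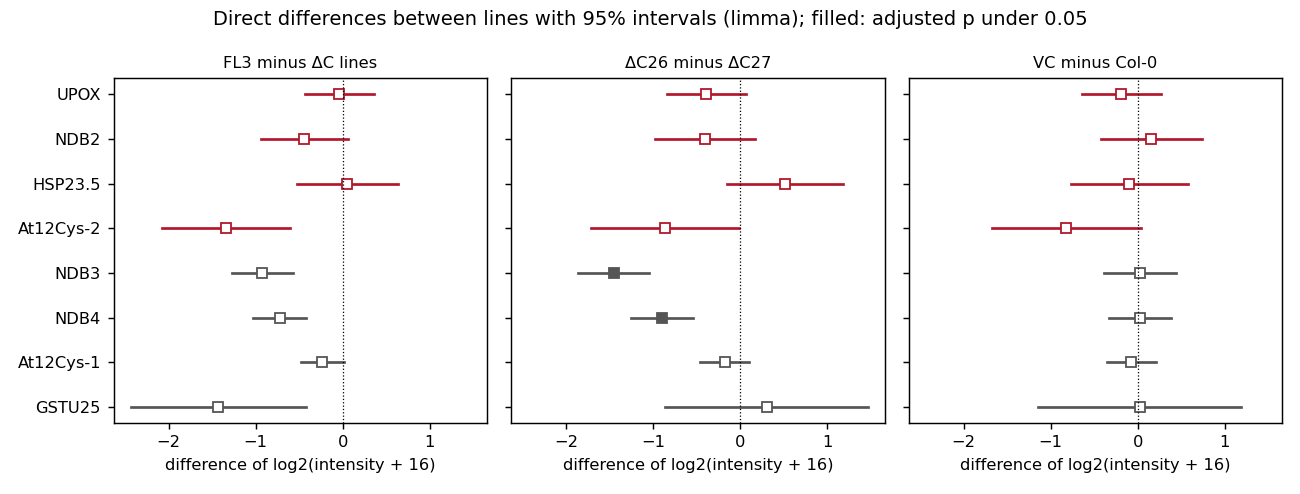
Difference of log2(intensity + 16) between lines, with 95% intervals from limma, for the 4 mitochondrial stress genes (red) and 4 related genes (grey), where filled squares passed at an adjusted p under 0.05. UPOX and HSP23.5 lie near 0 for FL3 minus the ΔC lines, the interval of At12Cys-2 runs from -2.08 to -0.60 without passing, and the filled squares are those of NDB3 and NDB4 for ΔC26 minus ΔC27.

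The FL3 arrays themselves differed in these genes. At12Cys-2 was higher in FL3 replicate 1 than in replicate 2 by 1.33 on the log2 scale, a gap reached by 0.149% of all probe sets in that line, where the SD of the gap over all probe sets was 0.206. NDB2 was higher in replicate 1 by 0.78, a gap reached by 0.747% of probe sets, and HSP23.5 by 0.41, reached by 4.44%. The gap of UPOX was 0.02. GSTU25, a tau-class glutathione S-transferase of the retrograde response, showed the same with readings of 377 and 93.2 in FL3, a gap of 1.85. Gaps between replicates were not confined to FL3. Replicate 1 minus replicate 2 was 0.89 for HSP23.5 in ΔC26, reached by 1.42% of probe sets in that line. For GSTU25 it was -1.17 in Col-0, reached by 0.277%. At12Cys-2 and NDB2 had their widest gaps in FL3. All 4 genes were higher in FL3 replicate 1, as were 44.0% of all probe sets. In ΔC26 and ΔC27 2 of the 4 were higher in replicate 1, and in VC and Col-0 0 of the 4. Over all probe sets the share was 44.6% in ΔC26, 46.3% in ΔC27, 50.7% in VC and 56.9% in Col-0. Nothing is read from these counts.

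NDB2 belongs to the type II NAD(P)H dehydrogenases, of which NDB1, NDB3, NDB4 and NDC1 also had a named probe set. NDB3, a close relative of NDB2, was read at 31.9 and 39.2 in FL3, at 51.5 and 35.3 in ΔC26 and at 164 and 129 in ΔC27. The control arrays read 14.9 and 18.0 in VC and 15.1 and 16.6 in Col-0. All TaSIN arrays of NDB3 lay above all control arrays, and ΔC27 lay apart from the other TaSIN lines. NDB3 rose in the ΔC lines by 1.60 ± 0.13 (SE, limma, adjusted p = 0.00018) and by 2.33 in ΔC27 alone (limma, adjusted p = 5.6e-05). In ΔC26 it rose by 0.87 (limma, adjusted p = 0.026), a call that ended under 10 of 19 alternatives, and in FL3 the difference of 0.68 did not pass (limma, adjusted p = 0.058) but did under 6 of 19 alternatives, with an adjusted p of down to 0.024.

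NDB4, another external dehydrogenase, was dim, at 11.2 and 11.3 in FL3, 13.8 and 20.4 in ΔC26 and 57.8 and 35.2 in ΔC27. The control arrays read 11.2 and 10.2 in VC and 9.9 and 10.5 in Col-0. It was thus close to the control level in FL3 and highest in ΔC27, where it rose by 1.22 ± 0.14 (SE, limma, adjusted p = 0.0007). In the ΔC lines together it rose by 0.77 (limma, adjusted p = 0.0027), while ΔC26 alone had a difference of 0.32 that did not pass (limma, adjusted p = 0.25). NDB1, an external enzyme that uses NADPH, had differences of 0.22 in FL3 and 0.25 in the ΔC lines, and NDC1 had 0.05 and 0.07, with no call in either gene (limma, adjusted p from 0.17 to 0.95 against the controls).

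Of these 4 measured relatives of NDB2, 2 rose in the ΔC lines, 2 in ΔC27, 1 in ΔC26 and 0 in FL3, where NDB3 had an unadjusted p under 0.05 (limma). Over all probe sets, 2.2% were higher in FL3, 6.91% in the ΔC lines, 1.91% in ΔC26 and 8.2% in ΔC27 by the same test. NDB3 and NDB4 were lower in ΔC26 than in ΔC27, by -1.45 ± 0.18 and -0.90 ± 0.16 on the log2 scale (SE, limma, adjusted p = 0.0053 and 0.02). Over all probe sets 0.822% were lower and 2.12% higher in ΔC26 than in ΔC27. The call of NDB4 ended without either ΔC26 array, with an adjusted p of up to 0.069. FL3 minus the ΔC lines was -0.92 for NDB3 and -0.73 for NDB4, and neither passed (limma, adjusted p = 0.063 and 0.083). Both passed when either ΔC27 array was left out, with an adjusted p of down to 0.0089 and 0.0014. Whether the probe sets of these related genes each read only their own transcript was not tested. The alternative oxidases, which take the electrons on, were not analysed here, since none had a named probe set.

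**Figure D3:**
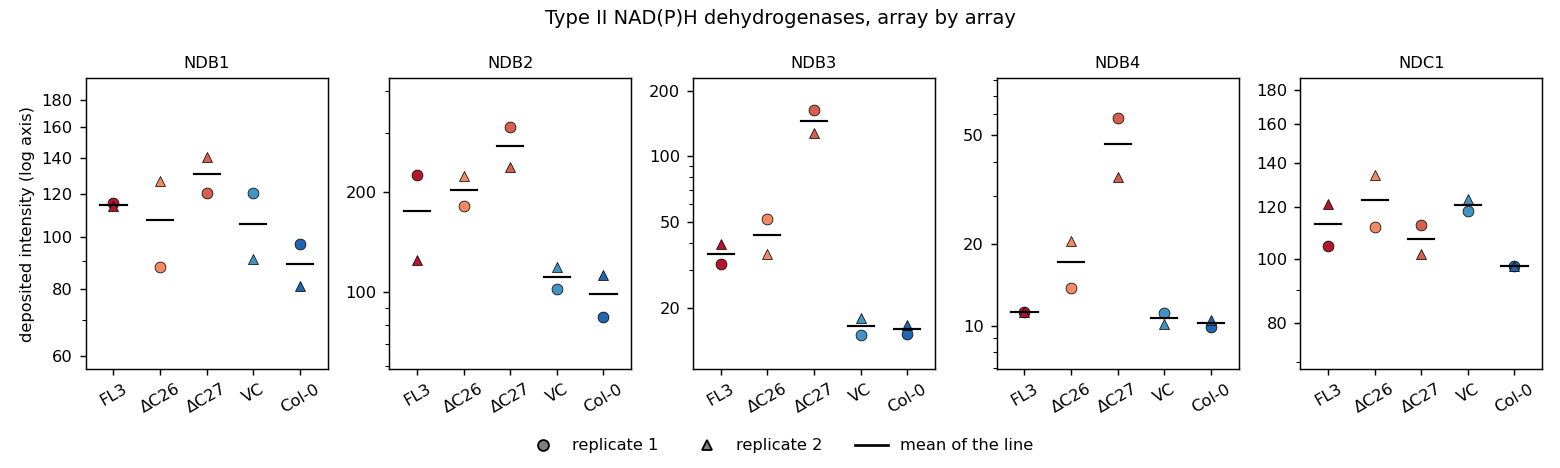
Deposited intensity (log axis, each panel with its own range) of the 5 measured type II NAD(P)H dehydrogenases in the 10 arrays, with the mean of each line as a bar. NDB3 and NDB4 are highest in ΔC27, with means of 146 and 46.5 against 16.2 and 10.4 over the control arrays, while NDB1 and NDC1 overlap the controls.

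Relatives of the other genes were examined in the same way. At12Cys-1 (AT5G64400), the paralogue of At12Cys-2, was bright in all lines, at 2170 and 1932 in FL3, 2302 and 2221 in ΔC26 and 2583 and 2547 in ΔC27, against 1793 and 2047 in VC and 1972 and 2069 in Col-0. Its ΔC arrays lay above all control arrays, but by little. It rose in ΔC27 by 0.38 (limma, adjusted p = 0.041), a call that ended under 11 of 19 alternatives, and had 0.29 in the ΔC lines and 0.06 in FL3, which did not pass (limma, adjusted p = 0.061 and 0.91), although the value of the ΔC lines did under 3 of 19 alternatives. HSP26.5 (AT1G52560), another mitochondrial small heat shock protein, read 5.2 to 8.4 in all arrays, near the lowest intensity in the table of 3.68. Its call in the ΔC lines rested on a difference of 0.12 (limma, adjusted p = 0.025) and ended under 10 of 18 alternatives.

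The list of retrograde response genes held 14 genes, of which 5 had a named probe set: the 4 described here and GSTU25. GSTU25 averaged 235 ± 200 in FL3, 604 ± 72.3 in ΔC26 and 485 ± 14.6 in ΔC27, against 58.3 ± 9.11 in VC and 62.9 ± 43.0 in Col-0 (SD, n = 2 each). It rose in ΔC26 by 3.07 and in ΔC27 by 2.77 (limma, adjusted p = 0.011 and 0.0034), and the call in ΔC26 ended without ΔC26 replicate 2 (adjusted p = 0.12). In FL3 the difference of 1.5 did not pass (limma, adjusted p = 0.15), and it was 0.57 without FL3 replicate 1 and 2.42 without FL3 replicate 2, where it did pass (limma, adjusted p = 0.042). Genes of the list such as AOX1A, BCS1 and UGT74E2 were not analysed here, and neither were the listed regulators, uncoupling proteins, import components and antioxidant enzymes, for want of a named probe set.

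Of the genes for subunits of respiratory complexes and cytochrome c, 15 of 32 were measured. In the ΔC lines 7 of the 15 rose and 0 fell (limma), with a median log2 difference of 0.36, beside a median of 0.0032 over all probe sets, of which 6.91% rose and 6.15% fell. Examples were CYC1-1, a cytochrome c1 of complex III, by 0.76 and SDH1-1, the flavoprotein subunit of complex II, by 0.47. The complex III subunits QCR7-2 and MPPBETA rose by 0.57 and 0.46. The adjusted p of these 4 genes lay between 0.012 and 0.034 (limma), and they were named because they were called. The calls of CYC1-1, SDH1-1 and MPPBETA ended against VC alone, and that of QCR7-2 against Col-0 alone. The related gene CYC1-2 had differences of -0.07 in ΔC26 and 0.04 in ΔC27. In ΔC27 alone 5 of the 15 rose, in ΔC26 0, and in FL3 0 of the 15, where 5 had an unadjusted p under 0.05 and the median difference was 0.24. Over all probe sets 8.2% rose in ΔC27, 1.91% in ΔC26 and 2.2% in FL3. The count of 7 depended on the controls, at 1 against VC alone and 3 against Col-0 alone. It became 2 when VC replicate 1 was left out, 0 when Col-0 replicate 1 was and 4 when ΔC26 replicate 2 or ΔC27 replicate 1 was.

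The general stress lists had too few measured genes for their counts to be read against these shares, and their values are given as a description. Of the markers raised by many kinds of oxidative stress, a list that includes UPOX, AT1G19020, AT1G05340 and AT1G57630 were also measured. These 3 had no call against the controls in FL3 or in the ΔC lines, with log2 differences from -0.08 to 0.23 in FL3 and from -0.42 to 0.25 in the ΔC lines, and 0 had an unadjusted p under 0.05 (limma). Of 4 measured heat shock genes outside mitochondria, ROF2, a heat-induced immunophilin, rose in ΔC26 by 1.47 (limma, adjusted p = 0.0063), to 126 and 103 against 25.5 to 39.4 in the control arrays, and this call ended without ΔC26 replicate 2 (adjusted p = 0.055). In ΔC27 and FL3 ROF2 had differences of 0.13 and 0.43 that did not pass, and the other 3 genes did not pass in any TaSIN line. Of 3 hypoxia genes 0 passed in any TaSIN line, with 1 at an unadjusted p under 0.05 in FL3, and WIP4 had differences of 1.27 in FL3, -0.83 in ΔC26 and 1.07 in ΔC27. The single measured gene of 19 for mitochondrial chaperones and proteases, CLPP2, did not pass either, with 0.20 in FL3 and 0.11 in the ΔC lines.

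**Figure D4:**
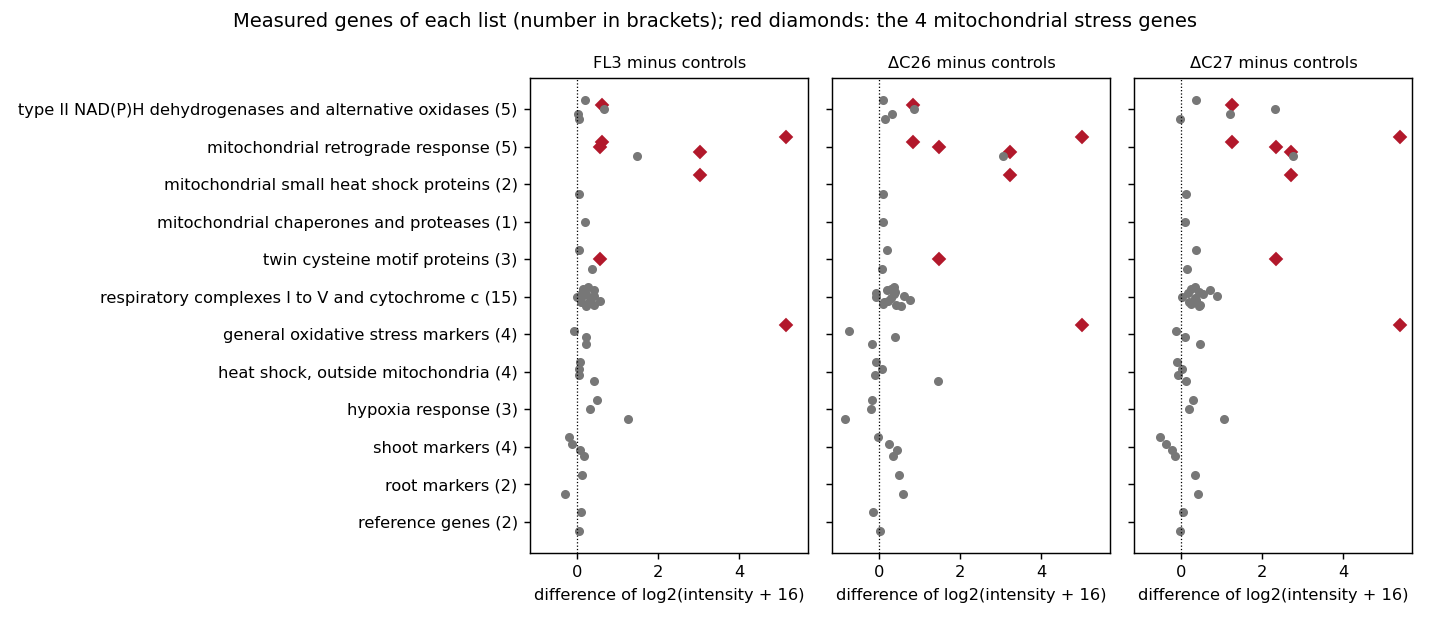
Difference of log2(intensity + 16) from the controls in FL3, ΔC26 and ΔC27 for each measured gene of 12 lists, with the number measured in brackets and the 4 mitochondrial stress genes as red diamonds. The largest values in each panel are those of UPOX, at 5.17, 5.01 and 5.40, and the respiratory subunits lie mostly at small positive values.

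The genes with the most similar profiles were found by the root mean square distance, over the 10 arrays, between log2 values taken relative to the control mean. For UPOX they were AT2G04050, which encodes a MATE-type transporter, at a distance of 0.59, AT2G18190, an AAA-type ATPase gene, at 1.06 and AT2G20720 at 1.30. AT2G04050 was read at 967 in FL3, 460 in ΔC26 and 1108 in ΔC27 on average, against 17.5 over the control arrays. ΔC26 minus ΔC27 was -1.26, -1.65 and -1.20 in these 3 genes, where UPOX had -0.39, given without a test because the genes were chosen by their profile over the same arrays. For HSP23.5 the nearest were GSTU22 at 0.72, AT2G20720 at 0.75 and AT2G41730 at 0.80.

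By this distance, which depends on the size of a change, NDB2 had far closer neighbours than the other genes. These were TBL36, a gene of the cell wall acetylation family, at 0.14, GR1, a glutathione reductase, at 0.20 and AT3G04840, a ribosomal protein gene, at 0.20. TBL36 was read at 362 and 246 in FL3, at 324 and 373 in ΔC26 and at 622 and 422 in ΔC27, against 189 to 214 in VC and 155 to 247 in Col-0, and so shared with NDB2 the gap between the FL3 arrays. For At12Cys-2 the nearest were AT3G21770, a peroxidase gene, at 0.42, ChiC, a chitinase, at 0.43 and DI21 at 0.47. AT3G21770 averaged 657 in FL3, 971 in ΔC26 and 1690 in ΔC27, against 366 over the control arrays. Among the 4 genes themselves, At12Cys-2 and NDB2 were the closest pair, at 0.67, and UPOX and NDB2 the farthest, at 3.33. The distance depends on the size of a change as well as on its shape. Ranked by correlation over the arrays, 2 of the 3 genes remained among the nearest 3 for NDB2 and 0 of 3 for each of the others. By correlation UPOX was the nearest gene to HSP23.5, although HSP23.5 was not among the nearest 3 to UPOX. At12Cys-1 was among the nearest 3 to At12Cys-2. The lowest correlation among the nearest 3 was 0.990 for UPOX, 0.957 for NDB2, 0.956 for HSP23.5 and 0.949 for At12Cys-2.

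**Figure D5:**
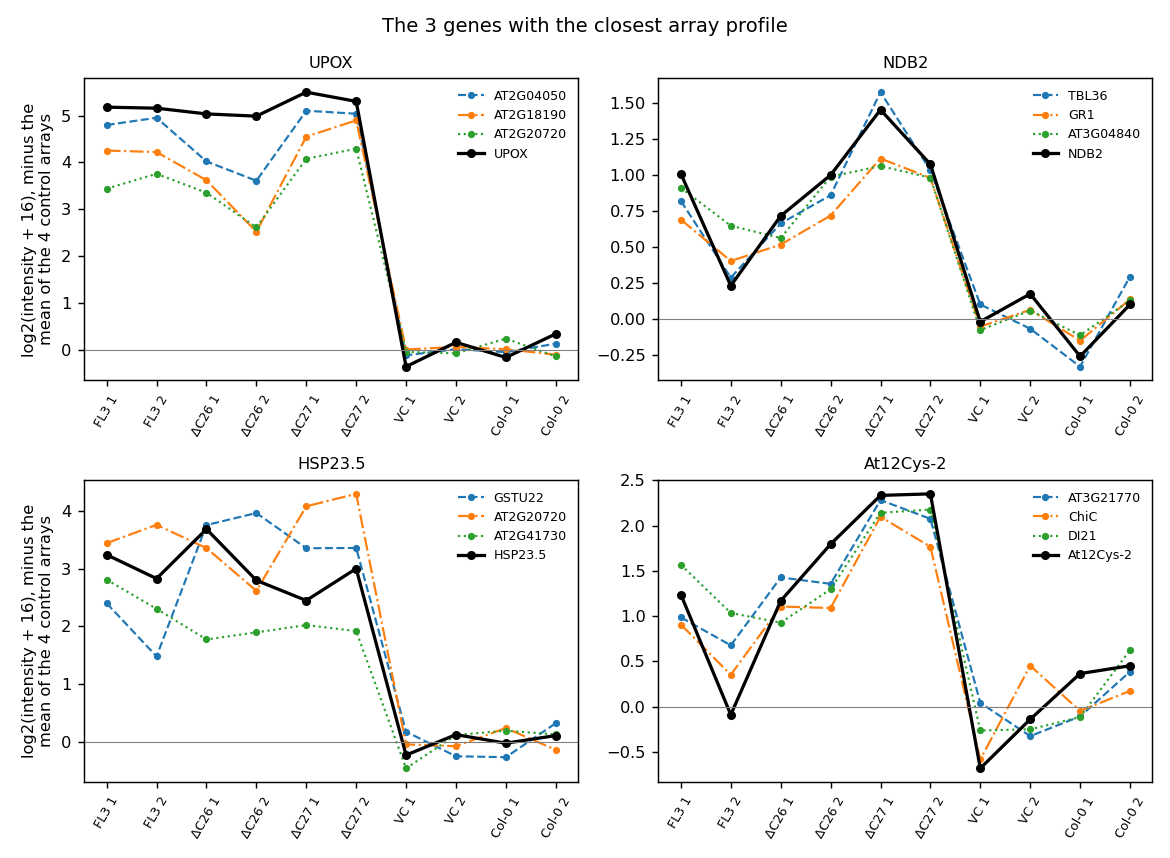
Values of log2(intensity + 16) minus the mean of the 4 control arrays, for each of the 10 arrays, of the 4 mitochondrial stress genes (black) and of the 3 genes with the closest profile to each. NDB2 and TBL36 nearly coincide, at a distance of 0.14, whereas the nearest genes of UPOX run below it, most of all in ΔC26.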

How the data were processed

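Expression was measured on Affymetrix arrays, from Trizol-extracted total RNA labelled with biotin per the labels' protocols. The deposited values are intensities, 1 per probe set and array, on a linear scale judged from the values, which ran from 3.68 to 12648. How the authors summarised, scaled and background-corrected them is not given in the sources used here. The 64 control probe sets were left out, which left 22746. The platform annotation paired 13513 with 1 gene, and 13436 of these matched a locus of the TAIR10.1 table by gene identifier. For a gene read by more than 1 probe set, that with the highest mean intensity was used.

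Differences were computed on log2(intensity + 16). As 34.8% of all values were below 16, they understate changes of dim probe sets. The fit, by limma 3.58.1 under R 4.3.3, had 1 coefficient per line and all 10 arrays (5 residual degrees of freedom, variance prior with an intensity trend), two-sided, with Benjamini-Hochberg adjustment over all probe sets at 0.05. On simulated data for FL3 minus controls over 22746 probe sets it recovered 75 of 100 changes of 1 and 98 of 100 changes of 2 on the log2 scale, with 6 false calls. The simulated noise of a probe set was normal, with the same SD in all lines. In the data the SD of the replicate gap over all probe sets was 0.206 in FL3 and 0.415 in ΔC27. Recovery in these arrays can therefore differ. Precision is limited by the number of arrays. matplotlib 3.10.9 served for the plots.

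The genes, the 16 lists (186 genes, 46 with a named probe set) and the rules were chosen with earlier results of these data known. Named besides the 4 genes were their measured paralogues, from each other list up to 4 called genes with the largest difference, and the 3 genes with the closest profile. All contrasts against the controls share the control arrays. The alternatives tried were pseudocounts of 1 and 64, a prior without trend, each control line alone, quantile normalization, centring on array medians, the 15164 brightest probe sets alone, the replicate number as a block, leaving out each array, and correlation as the measure of likeness.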

Additional observations from a re-analysis of the deposited data

Results flagged for a closer look

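Among the genes named, direct tests found 3 that differed between the truncated lines. NDB3 was lower in ΔC26 than in ΔC27 by -1.45 on the log2 scale and NDB4 by -0.90, while ROF2 was higher in ΔC26 by 1.35 (limma, adjusted p = 0.0053, 0.02 and 0.016). ROF2 was named because it was called against the controls with the same ΔC26 arrays. Its direct test is therefore not independent of its choice. In this contrast 2.95% of all probe sets passed. The arrays of the truncated lines did not overlap in any of the 3 genes. The share of all probe sets without overlap was not computed, and nothing is read from it. The calls of NDB4 and ROF2 ended without either ΔC26 array, with an adjusted p of up to 0.069 and 0.066, while that of NDB3 held under all 17 alternatives. What lies behind these differences was not tested.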

How the results depend on the processing

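With 2 arrays per line, single arrays decided several values. The log2 difference of At12Cys-2 between FL3 and the controls ran from -0.088 to 1.24 and that of NDB2 from 0.23 to 1.01, both lowest without FL3 replicate 1. UPOX and HSP23.5 stayed above the controls under all alternatives, with values set by the pseudocount: 5.60 in FL3 and 5.64 in the ΔC lines for UPOX, and 3.72 and 3.67 for HSP23.5, with a pseudocount of 1, and 4.32, 4.36, 2.04 and 2.01 with 64, where At12Cys-2 had 1.37 in the ΔC lines. By construction a smaller pseudocount widens differences of dim probe sets. None of the 12 direct tests of the 4 genes passed under any of their 17 alternatives.

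Same-numbered arrays of different lines did not deviate together (10 pairs of lines, correlation -0.2 to 0.0859). This cannot show whether same-numbered arrays were grown or handled together. With a replicate block the calls numbered 377 for ΔC26 minus controls, 30 for FL3 minus the ΔC lines, 446 for ΔC26 minus ΔC27 and 2 for VC minus Col-0, against 617, 47, 670 and 6 without it.

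Without trend there were 18 calls for FL3 minus the ΔC lines and 0 for VC minus Col-0, as with the dimmest probe sets removed (limma, 1594 at an unadjusted p under 0.05 in the fit reported). Against VC alone, FL3 had 391 calls, the ΔC lines 1395, ΔC26 222 and ΔC27 2522. Against Col-0 alone, FL3 had 391 and ΔC26 406. Respiratory genes called were 1 in the ΔC lines and 1 in ΔC27 against VC alone, and 3 and 3 against Col-0 alone. Leaving out each array in turn gave 57 to 751 calls in FL3, 1558 to 3723 in the ΔC lines, 71 to 1727 in ΔC26, 2366 to 4134 in ΔC27, 11 to 543 for FL3 minus the ΔC lines, 109 to 1448 for ΔC26 minus ΔC27 and 2 to 48 for VC minus Col-0. The respiratory counts ran from 0 to 8 in the ΔC lines and 2 to 7 in ΔC27. The cause of these shifts was not tested. Of 24 calls on named genes, 9 held under all alternatives, and of 54 differences that did not pass, 10 passed under some. Dim probe sets such as NDB4 and HSP26.5 are limited by their signal over background, which the deposited values do not give.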

Other observations

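The chromosomal neighbours of the 4 genes were looked up. Of the 24 protein-coding genes within 3 positions on either side in the gene table, 7 had a named probe set, and 0 of these passed in any contrast against the controls by limma, with 0 at an unadjusted p under 0.05. Over all probe sets 2.2% were higher in FL3 and 6.91% in the ΔC lines, so that 0 of 7 is near the background and nothing is read from it. The 7 genes flank UPOX, HSP23.5 and NDB2, and no neighbour of At12Cys-2 was measured. Their log2 differences lay between -0.18 and 0.17 in FL3 and between -0.22 and 0.05 in the ΔC lines. RD2, AT2G21630 and AT2G21655, the measured neighbours of UPOX, had -0.18, 0.07 and 0.04 in FL3. The measured neighbours of HSP23.5 were AT5G51410 and AT5G51420, with 0.17 and 0.06 in FL3. This was examined after the values of the 4 genes were known.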
